A study of Neurospora crassa OR74A with 2 samples.

Results

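Of 8564 genes measured in Neurospora crassa, the 117 described here had at least 2-fold more transcript in the strain without the transcription factor PP-1 than in the wild type. They were chosen by that difference between 2 libraries, by the rule given below.

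PP-1 is the Ste12-type transcription factor of Neurospora crassa, a filamentous ascomycete. Fungal Ste12-type factors act at the end of a MAP kinase cascade that also serves mating, and in this fungus the MAK-2 cascade and PP-1 are needed for germinated asexual spores (germlings) to fuse with one another. Loss of such a factor can leave transcripts lower, where it acts as an activator, or higher, where it restrains a gene directly or through other regulators.

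The tested strain carried a deletion of pp-1 (Δpp-1), and the strain it was set against was the wild type FGSC 2489. Conidia of both were grown for 5 h at 30 °C, and each strain gave 1 RNA-seq library, so every difference below describes 1 library against 1 other, with no replicate check and no p-value. Nothing in the labels says whether the strains share a background beyond this deletion, and germling fusion was not measured here. Levels are RPKM, the authors' count of reads per kilobase of gene and per 1000000 reads of the library. In bulk RNA, fewer cells of a type and less RNA per cell cannot be told apart. The deleted gene itself (NCU00340) stood at 1.69 RPKM in Δpp-1 and 83.8 RPKM in the wild type.

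Members were chosen by their values. Of 8564 genes with a value, 4831 reached 10 RPKM in at least 1 library, and 132 of these (2.73%) exceeded the wild type 2-fold or more in Δpp-1, taken as log2((Δpp-1 + 1)/(wild type + 1)) of 1 or more. From these, 15 genes were left out by name, among them genes of fermentation, the pheromone precursor gene ccg-4 and several conidial genes. The remaining 117 genes are the members. Since this difference chose them, the levels and folds that follow are a description and nothing was tested on them. The background share of 2.73% comes from the same contrast, and nothing is read from it about the members themselves.

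**Figure D1:**
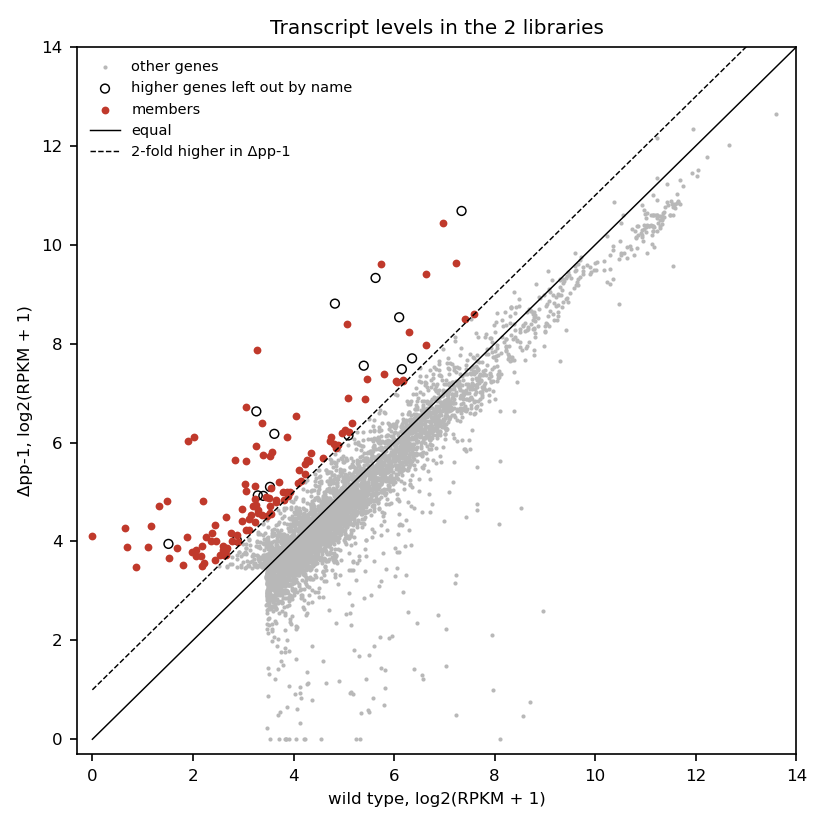
Each point is 1 of the 4831 genes that reached 10 RPKM, as log2(RPKM + 1) in the wild type (x axis) and in Δpp-1 (y axis). The 117 members (filled red) lie on or above the dashed line of 2-fold higher in Δpp-1, and the 15 higher genes left out by name are open circles.

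Most members were genes of low or moderate level in the wild type. The median member stood at 28.2 RPKM in Δpp-1 and 8.79 RPKM in the wild type, beside a median over all genes of 9.84 RPKM in the Δpp-1 library and 11.95 RPKM in the wild-type library. In the wild type 74 of the 117 lay below the median of all 8564 genes, which also covers genes under 10 RPKM. In Δpp-1 the limit of 10 RPKM, which lies above the median, left no room for any to do so. Ranks, which do not depend on how a library is scaled, ran from 59 to 4199 among 8564 genes in Δpp-1 and from 384 to 7760 in the wild type, with medians of 2045 and 4877. A rank of 500 or better was held by 16 members in Δpp-1 and by 3 in the wild type. Lower levels and poorer ranks in the wild type than in Δpp-1 follow from the way the members were chosen.

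The differences were unevenly spread over the members. The log2 fold was between 1 and 1.5 for 64 members, between 1.5 and 2 for 22, between 2 and 3 for 17, between 3 and 4 for 10 and at least 4 for 4. The difference reached 4-fold in 31 members, beside 39 of all 4831 genes (0.807%), of which 8 were among the genes left out. The median log2 fold of the members was 1.43, and that of all 4831 genes was -0.28, so that relative to the median gene the members lay from 1.28 to 4.87 higher. Other ways of scaling the libraries raise Δpp-1 relative to the wild type by 0.24 to 0.39 on this scale. All 117 members therefore had to stay past 2-fold under each of them, and more genes join.

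As a share of all RPKM, the members made up 2.28% of the Δpp-1 library and 0.425% of the wild-type library. The 5 members with the highest level in Δpp-1 held 4024 of the 9868 RPKM of all members in Δpp-1, against 617 of 2421 RPKM in the wild type. Without these 5, the other 112 members made up 1.35% of the Δpp-1 library and 0.317% of the wild-type library. A larger share in Δpp-1 is fixed by the way the members were chosen, and the values show only its size.

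Those 5 most abundant members have no gene symbol in the RefSeq gene table (assembly NC12), and no function is given for them here. NCU04276 stood highest, at 1385 RPKM in Δpp-1 (rank 59) and 125 RPKM in the wild type (rank 600). NCU06402 stood at 789 RPKM in Δpp-1 and 149 RPKM in the wild type, and NCU05338 at 783 RPKM in Δpp-1 and 52.3 RPKM in the wild type. NCU01546 stood at 679 RPKM in Δpp-1 and 97.9 RPKM in the wild type. All 4 were already well above the median gene in the wild type. The last, NCU10051, stood at 387 RPKM in Δpp-1 and 193 RPKM in the wild type, and with a log2 fold of 1.004 it lies just inside the limit.

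The precision of a single ratio depends on its reads. RPKM multiplied by gene span piled up at small whole multiples of 0.107 for the Δpp-1 library and of 0.127 for the wild-type library, the lowest at 2 times. The pile-ups were small, with 26 genes at the multiples examined in each library, against at most 4 at shifted positions. This spacing was picked as the one with the most such genes, so the read numbers below rest on few genes. If this spacing is 1 read, the library totals were 9372054 reads in Δpp-1 and 7876095 reads in the wild type. If the lowest pile-up is 1 read, at 2 times the spacing, they were smaller by that factor, and the values do not settle which holds. The intervals given below are exact 95% counting intervals of the ratio of RPKM without a pseudocount. They use 25% of the larger read number to allow for this and for introns within the span, and they cover counting error only, since PCR copies are not independent molecules. Of the 116 members with an annotated span, 59 had an interval wholly above 2-fold and 115 an interval wholly above equal levels. The members were chosen on this ratio, so these counts lend them no support.

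Among the 20 members with the largest log2 folds, 19 have no symbol. This too depends on the genes left out, all of which have one and 4 of which (adh-1, ccg-4, ncw-3 and cfp) had folds as large. NCU05498 had the largest, with 232 RPKM in Δpp-1 and 8.64 RPKM in the wild type, a ratio of 26.8 (interval 18.3 to 40.9). Its rank was 289 in Δpp-1, against 4907 in the wild type. NCU09174 stood at 64.1 RPKM in Δpp-1 and 2.76 RPKM in the wild type, a ratio of 23.2 (15.0 to 37.8). NCU04169 stood at 68.7 RPKM in Δpp-1 and 3.08 RPKM in the wild type, a ratio of 22.3 (12.8 to 42.5). All 3 stood below the median gene in the wild type and well above it in Δpp-1.

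Some others of the 20 combined a large ratio with a high level in Δpp-1. The ratio was 15.0 for NCU05338 (13.5 to 16.6) and 11.1 for NCU04276 (9.94 to 12.4), both given above. NCU08330 stood at 104 RPKM in Δpp-1 and 7.26 RPKM in the wild type, a ratio of 14.3 (9.52 to 22.4). NCU04314 stood at 334 RPKM in Δpp-1 and 32.3 RPKM in the wild type, a ratio of 10.4 (8.51 to 12.7). The interval of NCU05338 lay above those of NCU04276 and NCU04314, and that of NCU08330 overlapped all 3 others. NCU06940 stood at 83.2 RPKM in Δpp-1 and 9.42 RPKM in the wild type, and NCU07352 at 48.8 RPKM in Δpp-1 and 6.17 RPKM in the wild type.

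A further group of the 20 was close to the detection limit in the wild type, and their ratios are wide. NCU00175 stood at 18.3 RPKM in Δpp-1 and 0.577 RPKM in the wild type, where it had at most 9.40 reads, and its ratio of 31.7 had an interval of 9.28 to 210.1. NCU06120 stood at 13.8 RPKM in Δpp-1 and 0.602 RPKM in the wild type, with at most 4.10 reads there, and its ratio of 22.9 had an interval of 3.85 to 869. NCU00878 stood at 19.0 RPKM in Δpp-1 and 1.24 RPKM in the wild type, a ratio of 15.3 (4.72 to 85.9). The size of these differences is therefore known only to within an order of magnitude or more.

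NCU06804 was at 25.2 RPKM in Δpp-1 and 1.52 RPKM in the wild type, and NCU05822 at 27.2 RPKM in Δpp-1 and 1.80 RPKM in the wild type. NCU08429 was at 13.8 RPKM in Δpp-1 and 1.15 RPKM in the wild type. NCU06123, at 10.3 RPKM in Δpp-1 and 0.833 RPKM in the wild type, was the member with the lowest level in Δpp-1. NCU09528 had 16.3 RPKM in Δpp-1, while its wild-type value was listed at 0. An exact 0 can be a failed estimate in such a file, so no fold is given for NCU09528, which was also the one member listed more than once in the files.

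**Figure D2:**
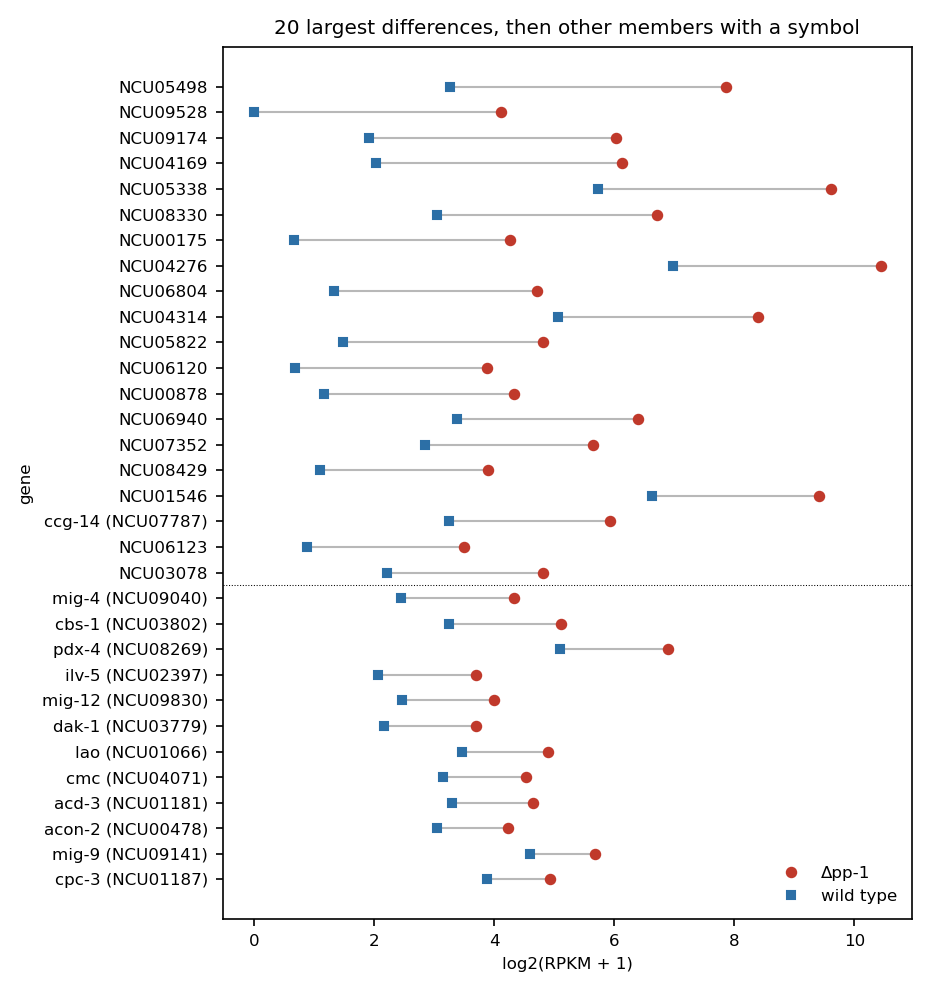
Levels as log2(RPKM + 1) in Δpp-1 (red circles) and the wild type (blue squares), 1 library each, for the 20 members with the largest log2 fold (above the dotted line) and the other 12 members with a gene symbol. The largest differences occur at very different levels, from NCU04276 at 1385 RPKM in Δpp-1 to NCU06123 at 10.3 RPKM.

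Of the 117 members 13 (11.1%) have a gene symbol, beside 835 of 4831 genes (17.3%). All 15 genes left out by name carry one, and with them 28 of the 132 higher genes (21.2%) do, so the low share among the members follows from what was left out. The highest fold among them belonged to ccg-14 (NCU07787), a clock-controlled gene for a small secreted protein of the cerato-platanin family. It stood at 59.7 RPKM in Δpp-1 and 8.49 RPKM in the wild type, a ratio of 7.03 (5.20 to 9.71). For the other 12 the ratio of RPKM lay between 2.14 and 4.30.

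The most abundant member with a symbol was pdx-4 (NCU08269), whose symbol marks genes needed for growth without pyridoxine (vitamin B6). It stood at 118 RPKM in Δpp-1 and 33.0 RPKM in the wild type, a ratio of 3.57 (2.86 to 4.49). The gene lao (NCU01066), for L-amino acid oxidase, which deaminates amino acids, stood at 28.8 RPKM in Δpp-1 and 10.0 RPKM in the wild type, a ratio of 2.87 (2.12 to 3.96). The gene ilv-5 (NCU02397), with a stem given to genes of isoleucine and valine synthesis, stood at 12.0 RPKM in Δpp-1 and 3.17 RPKM in the wild type. The gene cpc-3 (NCU01187) encodes the Gcn2-type kinase of the initiation factor eIF2, which senses amino acid shortage. It stood at 29.4 RPKM in Δpp-1 and 13.8 RPKM in the wild type, a ratio of 2.14 (1.78 to 2.58), whose interval reaches below 2.

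The gene acd-3 (NCU01181), of the acyl-CoA dehydrogenases that open fatty acid oxidation, stood at 23.9 RPKM in Δpp-1 and 8.79 RPKM in the wild type. The gene cmc (NCU04071), for carboxymuconate cyclase of aromatic compound breakdown, stood at 22.2 RPKM in Δpp-1 and 7.85 RPKM in the wild type. The gene acon-2 (NCU00478), which is required for the formation of conidia, stood at 17.8 RPKM in Δpp-1 and 7.30 RPKM in the wild type, a ratio of 2.44 (1.88 to 3.19). The ratio intervals of all 3 reach below 2.

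The remaining symbols are named without a role. The gene cbs-1 (NCU03802) stood at 33.8 RPKM in Δpp-1 and 8.44 RPKM in the wild type, and dak-1 (NCU03779) at 12.0 RPKM in Δpp-1 and 3.48 RPKM in the wild type. The genes mig-4 (NCU09040), mig-12 (NCU09830) and mig-9 (NCU09141) stood at 19.2, 15.0 and 50.3 RPKM in Δpp-1, against 4.46, 4.49 and 23.2 RPKM in the wild type. In the wild type mig-4 and mig-12 thus had nearly the same level and mig-9 a higher one.

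Whether the higher level was shared by related genes was then described for every symbol stem with a member and at least 3 measured genes. There were 6 such stems. In 4 of them the member stood alone. Of 4 pdx genes 1 was at least 2-fold higher: pdx-1 (NCU06550) and pdx-2 (NCU06549), which together make pyridoxal phosphate, stood at 1385 and 204 RPKM in Δpp-1, against 1465 and 174 RPKM in the wild type. Of 4 ilv genes 1 was at least 2-fold higher, and ilv-2 (NCU03608), ilv-4 (NCU01666) and ilv-6 (NCU04754) had log2 folds of -0.69, -0.38 and -0.64. These 3 were far more abundant than ilv-5, from 99.4 to 715 RPKM in Δpp-1 and from 155 to 1158 RPKM in the wild type.

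The acd and cpc stems had the same arrangement. The genes acd-1 (NCU02287) and acd-2 (NCU08924) had log2 folds of -0.58 and -0.70, beside 1.35 for acd-3. The transcription factor gene cpc-1 (NCU04050) of amino acid control had a log2 fold of -0.34 and cpc-2 (NCU05810), for a RACK1-type protein, one of -0.92, beside 1.04 for cpc-3. Across all 4 stems, 0 of 14 genes were at least 2-fold lower, beside 6.98% of all 4831 genes. The member in each stem was chosen as higher and could not be lower, so nothing is read from this count. Stem medians of the log2 fold were 0.10 for pdx, -0.51 for ilv, -0.58 for acd and -0.34 for cpc, beside -0.28 for all genes. Each of these stem medians includes the chosen member.

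The ccg and mig stems held more than 1 higher gene. Of 9 clock-controlled genes with a ccg symbol 7 reached 10 RPKM. At least 2-fold higher were 2 of these, ccg-14 and the left-out ccg-4 (NCU02500, 642 RPKM in Δpp-1 and 48.6 RPKM in the wild type). The left-out gene eas (NCU08457), also named ccg-2, carries another symbol and is not counted here. It had a log2 fold of 1.52, with 29.3 RPKM in Δpp-1 and 9.55 RPKM in the wild type. The gene ccg-13 (NCU08907), also named ncw-7, stood just outside the level limit at 9.37 RPKM in Δpp-1 and 1.03 RPKM in the wild type. The other genes with a ccg symbol that reached 10 RPKM had log2 folds from -0.35 for ccg-16 (NCU05495) to 0.14 for ccg-15 (NCU08936). Of 11 mig genes 3 were at least 2-fold higher and 1 was at least 2-fold lower, beside 2.73% and 6.98% of all 4831 genes. A stem was described only where it held a member, so at least 1 higher gene in each was fixed by that choice. The mig gene that was lower, mig-7 (NCU02220), stood at 6.39 RPKM in Δpp-1 and 23.0 RPKM in the wild type. The stem medians, members included, were 0.05 for ccg and 0.45 for mig. Across the mig stem the log2 folds ran from -1.70 for mig-7 to 1.89 for mig-4, so a shared symbol did not go with a shared direction.

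**Figure D3:**
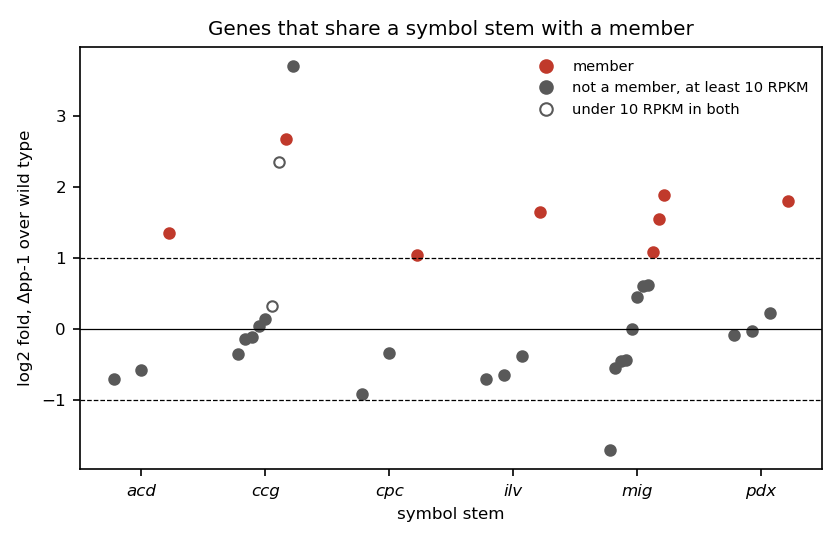
Log2 fold (Δpp-1 over wild type, RPKM + 1) of every measured gene of the 6 symbol stems with a member, 1 point per gene; dashed lines mark 2-fold higher and 2-fold lower. In acd, cpc, ilv and pdx a single member lies above the upper line, while mig holds 3 members and 1 gene below the lower line.

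The position of the genes on the chromosomes was not used in choosing them. Gene order was taken from assembly NC12, for which 116 of the 117 members had a place. Of these, 10 members (8.62%) lay directly next to another member, beside 111 of all 4740 placed genes that reached 10 RPKM (2.34%). Within 2 genes the counts were 15 members (12.9%), beside 232 of 4740 genes (4.89%). Next to a gene at least 2-fold lower lay 5 members (4.31%), beside 306 of the 4740 genes (6.46%). The 10 members next to another member form 5 pairs, each counted from both sides. The share next to another member was thus larger among the members, but it rests on these 5 pairs. Of the 117 members, 63 were under 10 RPKM in the wild type and passed the level limit only through Δpp-1, where they were chosen as higher. How much the level limit adds to this share was not tested. The share next to a lower gene rests on 5 members and lies near the share over all genes, so nothing is read from it. No test was made of these shares, since genes are not replicates of a strain.

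Higher neighbours were most frequent directly beside a member. Of 112 directly adjacent genes with at least 10 RPKM, counted once per member, 11 (9.82%) were at least 2-fold higher, the left-out genes included. Apart from a left-out gene, these were the 5 adjacent pairs of members, each seen from both sides. Most of the 11 reached 10 RPKM only in Δpp-1, where they were higher, so the level limit itself adds to this share. At 2, 3, 4 and 5 genes away the shares were 4.72%, 3.31%, 2.42% and 3.42%, against 2.73% of all genes. These shares rest on only 6, 4, 3 and 4 higher genes. The median log2 fold of the directly adjacent genes was -0.18, and that of all 4831 genes was -0.28. Most neighbours of a member were therefore not higher themselves.

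The strongest pair was NCU04168 and NCU04169 on chromosome V. NCU04168 stood at 13.7 RPKM in Δpp-1 and 2.20 RPKM in the wild type, and NCU04169 is given above among the largest differences. The gene on the other side of NCU04168, NCU04167, was no member because of its level, but stood at 6.13 RPKM in Δpp-1 and 1.52 RPKM in the wild type. These 3 genes in a row were flanked by genes with log2 folds of -0.71 (NCU04166) and 0.42 (NCU04170). The 5 flanking genes that reached 10 RPKM had log2 folds from -0.71 to -0.47.

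A run of 3 members lay on chromosome I. NCU03151 stood at 360.4 RPKM in Δpp-1 and 169 RPKM in the wild type, NCU03152 at 54.3 RPKM in Δpp-1 and 19.4 RPKM in the wild type, and NCU03153 at 46.5 RPKM in Δpp-1 and 17.7 RPKM in the wild type. One newer gene model between NCU03152 and NCU03153 was not analysed here. The log2 folds of the run were 1.09, 1.44 and 1.35, close to each other although the levels differ widely. The genes on its 2 sides, NCU03150 and NCU03154, had log2 folds of -0.78 and 0.00.

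On chromosome V, lao was part of a similar group. NCU01064 stood at 12.3 RPKM in Δpp-1 and 4.78 RPKM in the wild type, and NCU01065, which separates it from lao, stood at 88.1 RPKM in Δpp-1 and 44.4 RPKM in the wild type. The log2 fold of NCU01065, 0.97, lay just under the limit. The 3 genes in a row thus had log2 folds of 1.20, 0.97 and 1.43, and the next gene, NCU01067, had one of -0.37.

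Of the other pairs, cmc lay next to NCU04072 on chromosome VI, which stood at 16.0 RPKM in Δpp-1 and 2.70 RPKM in the wild type. NCU05899 and NCU05900 on chromosome VII stood at 20.2 and 21.6 RPKM in Δpp-1, against 6.84 and 5.31 RPKM in the wild type. In both pairs the 2 genes had similar levels in Δpp-1, and the genes on either side had log2 folds below 0. NCU06416 and NCU06417 on chromosome III stood at 48.2 and 27.5 RPKM in Δpp-1, against 7.28 and 13.1 RPKM in the wild type. After 1 further gene lies mek-1 (NCU06419), the MAP kinase kinase gene of the cell wall integrity cascade, with 35.8 RPKM in Δpp-1 and 143 RPKM in the wild type, so that opposite differences occur here within 4 genes.

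NCU03076 and NCU03078 on chromosome I, with 1 gene between them, stood at 68.2 and 27.0 RPKM in Δpp-1, against 26.0 and 3.61 RPKM in the wild type. The gene between, NCU03077, stood at 5.88 RPKM in Δpp-1 and 4.49 RPKM in the wild type. Here the difference was thus not continuous along the chromosome. NCU08770 on chromosome III lay next to con-6 (NCU08769), a conidial gene among those left out, and the 2 had much the same values. NCU08770 stood at 25.4 RPKM in Δpp-1 and 8.11 RPKM in the wild type, and con-6 at 29.5 RPKM in Δpp-1 and 8.78 RPKM in the wild type. Strand was not recorded, and transcripts that overlap on opposite strands would share reads. The annotated spans overlapped in 0 of these pairs, and a part of shared reads beyond the annotated ends was not tested.

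**Figure D4:**
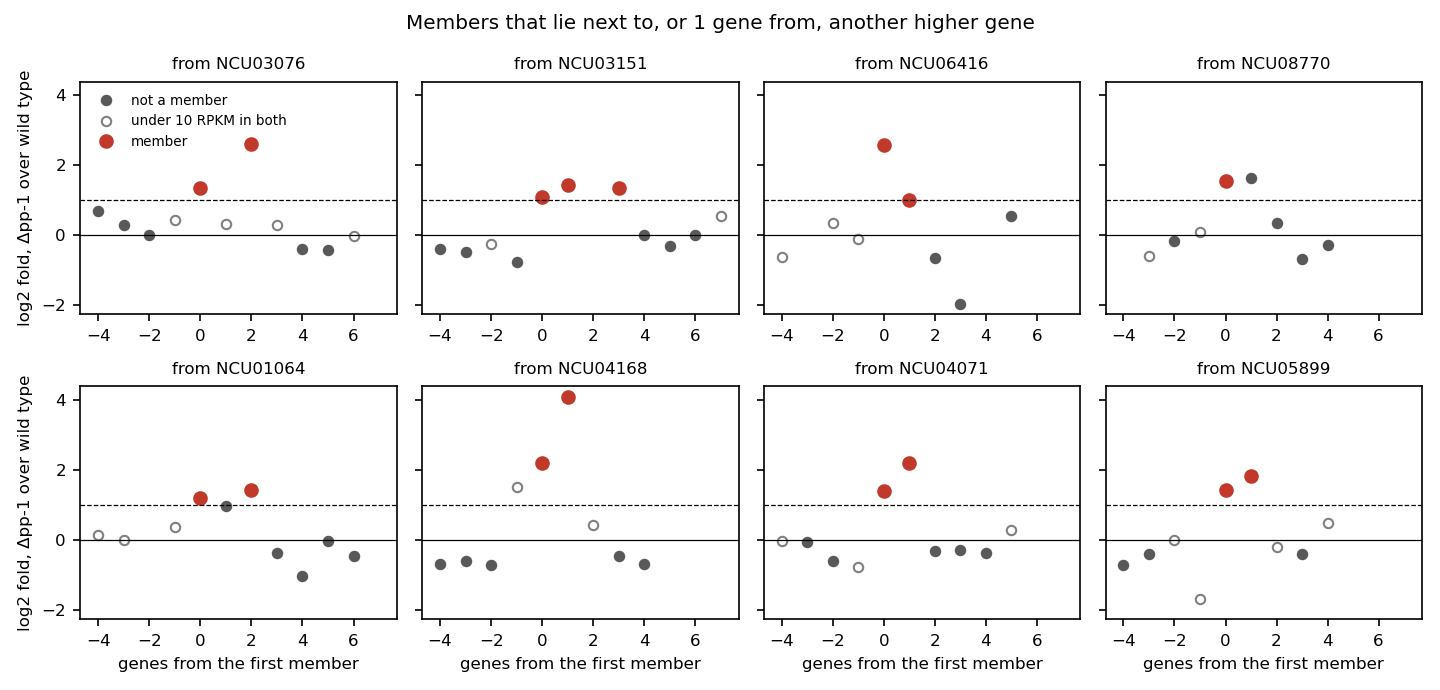
Log2 fold (Δpp-1 over wild type, RPKM + 1) by gene order around the 8 groups of members that lie next to, or 1 gene from, another higher gene; 0 on the x axis is the first member. Red points are members, filled grey points other genes with at least 10 RPKM, and open points genes under 10 RPKM in both libraries. No filled grey point lies above the dashed line of 2-fold higher other than con-6, next to NCU08770.

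The members were also spread unevenly over the 7 chromosomes. Chromosome V held 30 of the 116 placed members (25.9%), beside 849 of 4740 genes with at least 10 RPKM (17.9%), and chromosome VII held 16 (13.8%), beside 427 genes (9.01%). Chromosome I held 27 members (23.3%, beside 26.5% of genes), chromosome III 15 (12.9%, beside 13.2%) and chromosome IV 13 (11.2%, beside 14.3%). Chromosomes II and VI held 9 and 6 members (7.76% and 5.17%, beside 10.7% and 8.23%). Of the placed genes with at least 10 RPKM, members were thus 3.53% on chromosome V, 3.75% on chromosome VII and between 1.54% and 2.39% elsewhere. The higher genes left out by name are not counted in these shares. Of them, con-10, pho-5, aod-1, gln-2 and nit-3 lie on chromosome IV and ncw-3, con-6 and cat-3 on chromosome III. On chromosome V lie gna-2 and mus-18, and on chromosome VII cfp. Part of the gap to chromosomes III and IV thus follows from what was left out.

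**Figure D5:**
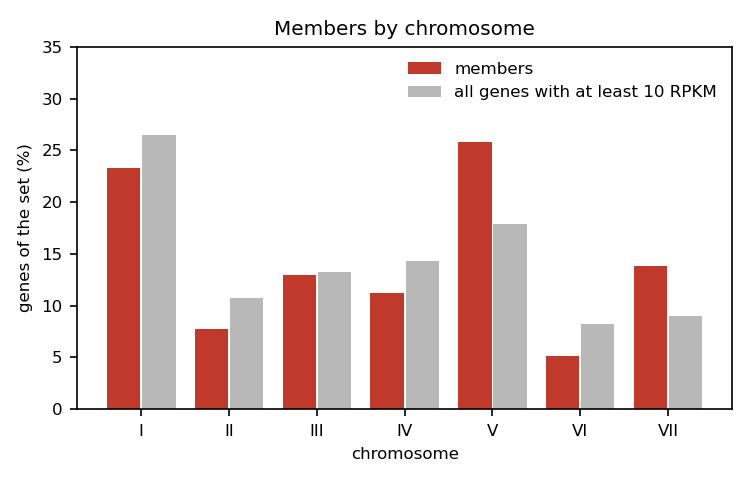
Share of the 116 placed members (red) and of the 4740 placed genes that reached 10 RPKM (grey) on each of the 7 chromosomes, in percent of each set. Chromosomes V and VII hold a larger share of the members than of all genes.

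The members had shorter annotated spans at the median than other genes. Their span had a median of 1.94 kb and quartiles of 1.64 and 2.60 kb, beside a median of 2.44 kb and quartiles of 1.82 and 3.35 kb over the 4740 genes. Of the 116 members with a span, 63 (54.3%) were under 2 kb, beside 32.7% of the 4740 genes and 35.5% of the genes at least 2-fold lower in Δpp-1. A shorter gene has fewer reads at the same RPKM, and whether that has a part in the difference was not tested.

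Markers of conidia and aerial hyphae, cell types that such a culture could also hold, were compared in the same libraries. Of 9 markers only 4 reached 10 RPKM, and 3 of these were at least 2-fold higher, con-10, con-6 and eas, and 0 were 2-fold lower, beside 2.73% and 6.98% of all 4831 genes. All 3 are among the genes left out by name. Of them, con-6 and eas, at 8.78 and 9.55 RPKM in the wild type, reached 10 RPKM only in Δpp-1. The share of 3 in 4 thus follows in part from the level limit, and over the full list it is 3 of 9. Summed over the 9, the markers stood at 153 RPKM in Δpp-1, with single genes from 0.313 to 71.3 RPKM. In the wild type their sum was 54.6 RPKM, with single genes from 0 to 14.3 RPKM. The 6 others, 5 of them under 10 RPKM in both libraries, had log2 folds from -0.76 for acon-3 to 0.39 for con-13, whose wild-type value was listed at 0. The part of these cell types in the members' values was not tested.

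The limits of the rule cut through a continuous range. Just inside the fold limit were NCU02328, NCU10051 and NCU06417 with log2 folds of 1.003, 1.004 and 1.016, and just outside it NCU11088, NCU08280 and NCU03908 with 0.996, 0.993 and 0.992. Of the members, 16 had a log2 fold under 1.1. Just inside the level limit were NCU06123, NCU05490 and NCU02603 at 10.3, 10.4 and 10.4 RPKM in Δpp-1, and just outside it NCU07723, NCU06042 and ccg-13 at 9.53, 9.51 and 9.37 RPKM. A further 120 genes met the fold limit but stayed under 10 RPKM in both libraries. The 68 members not named stood between 10.8 and 301 RPKM in Δpp-1 and between 1.89 and 98.7 RPKM in the wild type. Their log2 folds ran from 1.03 to 2.49 with a median of 1.27, and 7 of them were at least 4-fold higher.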

How the data were processed

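RNA-seq libraries were made from 1 culture each of Δpp-1 and the wild type. Per the labels' protocols, poly(A) RNA was fragmented and copied with random primers, without steps that mark strand. The submitters' processing notes list TopHat and Cufflinks and give no version; genome build: not given in the sources used here. The deposited values are RPKM per the file headers. Each table had 8802 lines for 8564 genes, and repeated identifiers were used once. A pseudocount of 1 RPKM was added before each log2 fold, and a single library per strain allowed no test. RefSeq's table of assembly NC12 was used for symbols, spans and gene order; 8087 identifiers matched a current locus tag and 85 a unique older one. The genes named were every member with a symbol, the 20 largest folds, the 5 highest levels, members listed at 0, the genes nearest the limits and adjacent members; NCU01065, NCU03076, NCU03077, NCU03153, NCU01064, NCU04167 and the flanking genes were named after their values were seen. Members and lists were chosen with earlier results of these data known. Recovery of simulated differences and of the read spacing was tested on simulated data. Python 3.11.15, NumPy 2.4.6, pandas 2.3.3, SciPy 1.17.1 and matplotlib 3.10.9 were used.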

Additional observations from a re-analysis of the deposited data

How the results depend on the processing

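Against 117 members, the counts were 200 with median scaling, 195 with upper-quartile scaling and 372 when each library was set to total 1000000, which also lifts more genes past 10 RPKM; all 117 were among them each time. Looser or stricter limits changed the count by construction: 237 without a level limit or with one of 1 RPKM, 56 with one of 30 RPKM, 280 at 1.5-fold and 31 at 4-fold. With a pseudocount of 0.1, one of 5 (83, all of them members) and without genes listed at 0, the count stayed within 1.5 times. Of the 46 members named by the rule, 7 were under 2-fold with a pseudocount of 5. With it the log2 folds of the 46 ran from 0.81 to 4.12, against 1.003 to 4.59 as reported. None changed direction under any of the pseudocounts or scalings, but none could. An equal amount added to both levels keeps their order, and every scaling used favours Δpp-1. The lack of reversals is therefore no check on the members. The share of members next to another member was 8.62%, beside 2.34% of all placed genes with at least 10 RPKM. Within 2 genes it was 12.9%, beside 4.89%. Under the other alternatives, chosen after seeing the data, it lay between 8.62% and 12.9%, the highest resting on 4 members. The share over all genes was not computed for these, so they do not show whether the difference holds. Promoter motifs and protein features, planned at first, were not analysed here. No paired analysis was possible because the strains had a single library each; leaving out a replicate could not be done either.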
